A study of Mus musculus with 2 samples.

Results

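The microRNAs described here are the 6 loci encoded inside the mouse Hox clusters, namely Mir10a, Mir10b, Mir615, Mir196b, Mir196a-1 and Mir196a-2. They were chosen by position, as the microRNA hairpins that lie inside Hoxa, Hoxb, Hoxc or Hoxd, and all 6 have a row among the 1973 loci of the deposited count tables. The tissue was embryonic day 14.5 hindbrain of mouse strain B6NCrl, the rearmost division of the brain, from which cerebellum, pons and medulla arise, with no genetic change or treatment in the labels. Small RNA below 30 nucleotides was sequenced from total RNA in 2 libraries of 1 group, replicate 2 collected on 30 July 2014 and replicate 1 on 24 July 2014. The labels call each sample 1 hindbrain in one field and pooled sexes in another, and give both the same donor, so SDs measure only the spread between these libraries, which may be technical. Replicate 2 held 6667238 counts on microRNA loci and replicate 1 held 5826676.

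A microRNA guides an Argonaute protein to messenger RNAs that pair with its seed, bases 2 to 8 from its 5′ end, and lowers their translation and stability. Hox genes are transcription factors that give body levels their identity along the head to tail axis, and within a cluster their order on the chromosome follows that axis, low paralog groups anterior and high ones posterior. Hindbrain expresses the anterior groups, while the posterior groups belong to trunk and tail. The miR-10 loci lie next to Hox4 genes and are known from hindbrain and spinal cord. The miR-196 loci lie upstream of Hox9 genes, are known from posterior trunk, and their product directs cleavage of the Hoxb8 messenger RNA in mouse embryos.

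The mature sequences show which members can share targets and which cannot be told apart by a short read. They are RefSeq sequences on GRCm38.p6, written 5′ to 3′ with the seed in capitals. RefSeq gave both arms for all 6 members, and the arm with the seed shared between loci is printed for miR-10 and miR-196.
miR-10a-5p: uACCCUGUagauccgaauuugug
miR-10b-5p: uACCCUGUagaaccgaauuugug
miR-615-5p: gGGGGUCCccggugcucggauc
miR-615-3p: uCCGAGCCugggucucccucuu
miR-196b-5p: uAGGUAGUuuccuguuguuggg
miR-196a-5p: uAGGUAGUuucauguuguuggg
miR-10a-5p and miR-10b-5p are identical at 22 of 23 bases and differ by U12A, counted from 1 at the 5′ end with the base of miR-10a first. miR-196a-5p and miR-196b-5p are identical at 21 of 22 bases and differ by A12C, with the base of miR-196a first, which is the same position 12. The seed is therefore shared within each pair, and no locus in the mouse RefSeq table outside these members has the seed of miR-10-5p, of miR-196-5p or of either arm of Mir615. Mir196a-1 and Mir196a-2 make an identical 5p product from separate chromosomes, so a read of that product alone cannot be placed at either locus. Their 3p arms, printed next because they are what remains to separate the copies, are identical at only 5 of 22 bases.
miR-196a-1-3p: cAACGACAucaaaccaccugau
miR-196a-2-3p: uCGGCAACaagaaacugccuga
The counts are per hairpin and do not say which arm the reads came from.

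The miR-10 loci sit at corresponding places in Hoxb and Hoxd, and the miR-196 loci in Hoxa, Hoxb and Hoxc, while Mir615 has no counterpart among the members. Mir10a (chr11:96317165-96317274, GRCm38, plus strand) lies outside annotated transcripts of its own strand, 1495 bases before the coding region of Hoxb4. Mir10b (chr2:74726070-74726137, plus strand) lies 1141 bases before that of Hoxd4, in introns of longer Hoxd4 and Hoxd3 transcripts. Hoxb4 and Hoxd4 are paralogs of group 4, so the miR-10 loci share both the seed of their 5p products and their neighbourhood. Mir615 (chr15:103014910-103015001, plus strand) lies in the intron between the coding exons of Hoxc5, of group 5. Mir196b (chr6:52230081-52230165, minus strand) lies between the coding regions of Hoxa10 and Hoxa9 and overlaps a non-coding part of an exon of a Hoxa9 transcript. Mir196a-2 (chr15:102973350-102973434, plus strand) lies between those of Hoxc10 and Hoxc9, in an intron of a long Hoxc5 transcript. Mir196a-1 (chr11:96265164-96265265, plus strand) lies outside annotated transcripts of its own strand, 6276 bases before the coding region of Hoxb9. All 3 miR-196 loci thus precede a Hox gene of group 9, at 3976 bases for Mir196b and 8218 bases for Mir196a-2.

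**Figure D1:**
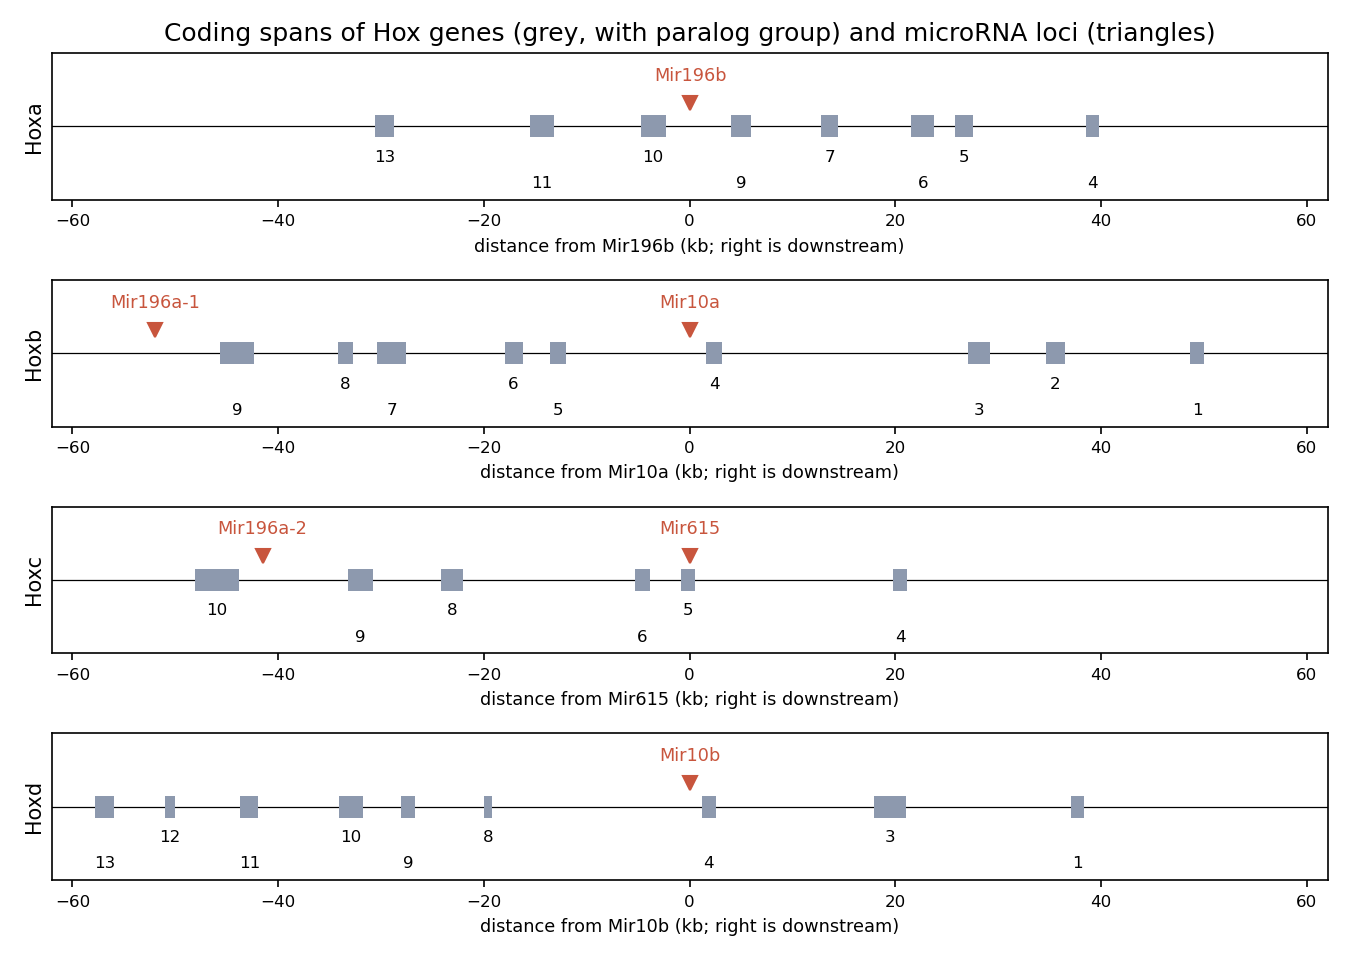
Positions of the 6 microRNA loci (triangles) among the coding spans of the Hox genes (grey bars, numbered by paralog group) within 60 kb of one microRNA of each cluster, as distance in kb from that microRNA, transcription running to the right. The miR-10 loci stand just before group 4, Mir615 inside group 5 and the miR-196 loci before group 9.

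The anterior members were abundant in hindbrain, and Mir196b, the posterior member whose 5p product can be placed at its locus, was far lower. Mir10a, beside Hoxb4, held 8.43% of the microRNA counts in replicate 2 and 10.8% in replicate 1, and Mir10b, beside Hoxd4, held 5.58% in replicate 2 and 7.06% in replicate 1. Mir615 of Hoxc5 had 2078 CPM (counts per 1000000 counts on microRNA loci) in replicate 2 and 3021 CPM in replicate 1. Mir196b had 38.4 CPM in replicate 2, against 35.01 CPM in replicate 1. Mir196a-1 and Mir196a-2 were counted at or below 6.00 CPM in both libraries, but reads of their shared 5p product match both loci and are in neither count, so these values do not show that miR-196a was scarce. For Mir10a, Mir10b, Mir615 and Mir196b, levels were lower the higher the paralog group, in the order of groups 4, 5 and 9, in both libraries. Group 9 is represented in this order by Mir196b alone. How efficiently each product is captured in library making also enters such a comparison, and that efficiency was not measured. These are levels in whole tissue, where fewer cells that express a microRNA and less RNA per cell cannot be told apart.

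Mir10a (ENSMUSG00000065519.1) had 562225 counts in replicate 2 and 632035 in replicate 1, a mean share of 9.64% ± 1.71 (SD, n = 2). By counts placed at a locus, it ranked number 2 of all loci in both libraries. Multimapping reads, 34.3% of reads in replicate 2 and 33.9% in replicate 1, are in no rank or share here. Loci with identical mature products can therefore rank too low. Mir10b (ENSMUSG00000065500.2) had 372177 counts in replicate 2 and 411147 in replicate 1, 6.32% ± 1.04 (SD, n = 2), and ranked number 3 in both. The ranges of the neighbours in this order did not overlap, since the lower value of Mir10a, 8.43%, lay above the higher value of Mir10b, 7.06%. Mir99a ranked above both, and Mirlet7g, the locus directly below them, had 47434 ± 4788 CPM, against 63192 ± 10423 CPM for Mir10b (SD, n = 2).

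Mir615 (ENSMUSG00000076010.1) had 13855 counts in replicate 2 and 17601 in replicate 1, or 2549 ± 667 CPM (SD, n = 2). It ranked number 65 by mean level, between Mir34c with 2603 ± 768 CPM and Mir204 with 2456 ± 428 CPM, and these neighbours do not differ beyond their spread. Mir10b was 26.9 times as high as Mir615 in replicate 2 (95% interval 26.4 to 27.3) and 23.4 times in replicate 1 (23.01 to 23.7). These intervals are exact and cover counting error only, as do all intervals and limits below.

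Mir196b (ENSMUSG00000065443.1) had 256 counts in replicate 2 and 204 in replicate 1. The exact Poisson 95% interval was 33.8 to 43.4 CPM for replicate 2, around 38.4, and 30.4 to 40.2 CPM for replicate 1, around 35.01. The mean was 36.7 ± 2.39 CPM (SD, n = 2). By counts placed at a locus it was the highest of the 3 miR-196 loci in both libraries, and its rank neighbours Mir1198 with 38.1 ± 1.01 CPM and Mir3072 with 36.2 ± 1.41 CPM lay within its spread. Mir615 was 54.1 times as high as Mir196b in replicate 2 (47.8 to 61.5) and 86.3 times in replicate 1 (75.2 to 99.5). Mir10a was 2196 times as high as Mir196b in replicate 2 (1943 to 2492) and 3098 times in replicate 1 (2701 to 3572).

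Mir196a-2 (ENSMUSG00000065488.1) had 40 counts in replicate 2, or 6.00 CPM with an exact Poisson interval of 4.29 to 8.17. In replicate 1 it had 20 counts, or 3.43 CPM with an interval of 2.10 to 5.30. Its mean of 4.72 ± 1.82 CPM lay between Mir7224 with 4.87 ± 0.329 CPM and Mir1b with 4.53 ± 0.587 CPM, which do not differ from it beyond their spread (SD, n = 2). Mir196a-1 (ENSMUSG00000065546.1) had 0 counts in replicate 2, which allows up to 0.450 CPM by a limit of 3 counts, and 1 count in replicate 1. Reads of the shared miR-196a-5p product match both loci, and the tables give multimapping reads to no locus. Multimapping took 34.3% of the reads of replicate 2 and 33.9% of those of replicate 1. The counts of both copies therefore leave out any such reads, and neither their order nor their place below Mir196b can be read as the order of the mature products. Mir196b makes a product of its own sequence and is the miR-196 level that can be read here.

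**Figure D2:**
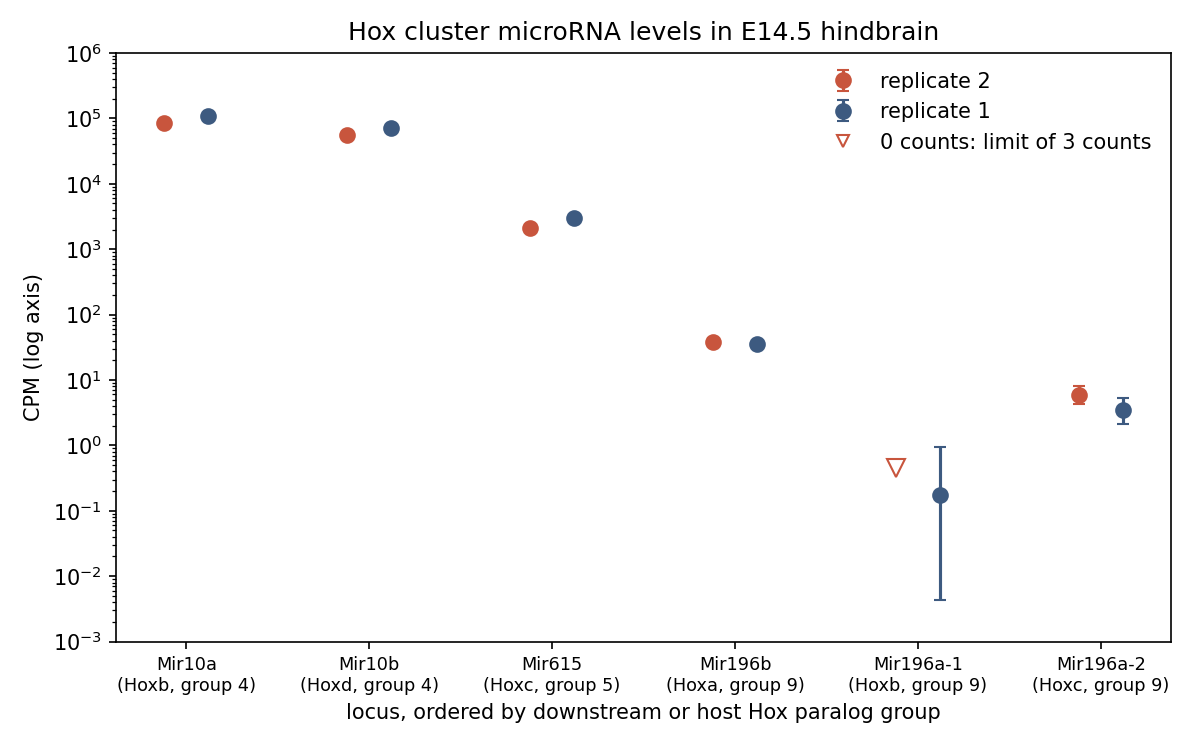
Level in CPM (log axis) of each Hox cluster microRNA in replicate 2 (red) and replicate 1 (blue), with exact Poisson 95% intervals, the loci ordered from anterior to posterior Hox group. The open triangle marks the limit that 0 counts allow for Mir196a-1 in replicate 2. Both miR-10 loci stand above 5% of the counts placed at microRNA loci. Mir615 stands at 2078 CPM in replicate 2, against 3021 CPM in replicate 1. The miR-196 loci stand at or below 38.4 CPM, with the shared 5p reads of Mir196a-1 and Mir196a-2 not counted.

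The miR-10 loci held nearly all of the counts that were placed at a Hox cluster microRNA. The 6 members together held 14.2% of the microRNA counts in replicate 2 and 18.2% in replicate 1, a mean of 16.2% ± 2.82 (SD, n = 2). Of these counts the miR-10 loci held 98.5% in replicate 2 and 98.3% in replicate 1, Mir615 held 1.46% in replicate 2 and 1.66% in replicate 1, and the 3 miR-196 loci held 0.0312% in replicate 2 and 0.0212% in replicate 1. These are shares of placed reads and not of mature products, because the tables do not show how many of the multimapping reads were miR-196a-5p. On the opposite strand no member had more than 3 counts in a library.

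The balance between the Hoxb and the Hoxd copy of miR-10 differed little between the libraries while the amount of both differed more. Mir10a held 60.2% of the counts of Mir10a plus Mir10b in replicate 2 and 60.6% in replicate 1, with Clopper-Pearson 95% intervals of 60.07 to 60.3 for replicate 2 and 60.5 to 60.7 for replicate 1. Mir10a was thus 1.51 times as high as Mir10b in replicate 2 and 1.54 times in replicate 1. The odds ratio of replicate 2 over replicate 1 was 0.983 (0.977 to 0.988, Fisher's exact test, two-sided, adjusted p = 6.78e-09 over 10 pairs of members). It therefore differed from 1 beyond counting error, by a small amount, and the test compares these libraries, not conditions. Such a ratio within a library does not depend on how the libraries are scaled to each other.

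Between members of different Hox groups the balance shifted more than between Mir10a and Mir10b. The other pair of the same group, Mir196b and Mir196a-2, had an odds ratio near that of Mir615 to Mir196b, but with an interval that includes 1. A difference by Hox group is therefore not shown. The ratio of Mir10a to Mir615 was 40.6 in replicate 2 and 35.9 in replicate 1, an odds ratio of 1.13 (1.10 to 1.16). That of Mir615 to Mir196b was 54.1 in replicate 2 and 86.3 in replicate 1, an odds ratio of 0.627 (0.519 to 0.758). For Mir10a to Mir196b it was 0.709 (0.587 to 0.855) and for Mir10b to Mir196b 0.721 (0.597 to 0.870). Of the 10 pairs, 9 passed at an adjusted p of 0.00452 or less by Fisher's exact test. Mir196b to Mir196a-2, at 0.628 (0.337 to 1.14), did not (adjusted p = 0.127). The pairs are formed from only 5 loci, so they are not independent, and those with Mir196a-2 lack its shared 5p reads. Pairs of other loci were not counted. Singly, 53.2% of the 282 loci with 100 or more counts in both libraries differed by a binomial test, so a passing pair is not particular to the members. Relative to Mir10a, Mir615 was thus lower in replicate 2 and Mir196b was higher.

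The miR-10 products belong to a wider family with miR-99 and miR-100, whose seed differs from that of miR-10. They are printed for comparison with miR-10a-5p.
miR-99a-5p: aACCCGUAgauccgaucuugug
miR-100-5p: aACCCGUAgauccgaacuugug
miR-99b-5p: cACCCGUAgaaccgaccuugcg
Mir99a, Mir99b and Mir100 lie outside the Hox clusters, and together held 22.1% of the microRNA counts in replicate 2 and 20.9% in replicate 1. With the miR-10 loci the family held 36.1% in replicate 2 and 38.8% in replicate 1. Within it, the miR-10 loci made up 38.8% in replicate 2 (38.7 to 38.9) and 46.1% in replicate 1 (46.05 to 46.2), intervals that do not overlap. The log2 ratio of replicate 2 over replicate 1 was -0.40 for the miR-10 loci summed (-0.40 to -0.39) and 0.04 for the miR-99 and miR-100 loci summed (0.03 to 0.04). These intervals do not overlap, so the miR-10 loci differed between the libraries from their relatives outside the clusters beyond counting error, with the spread between libraries not allowed for.

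**Figure D3:**
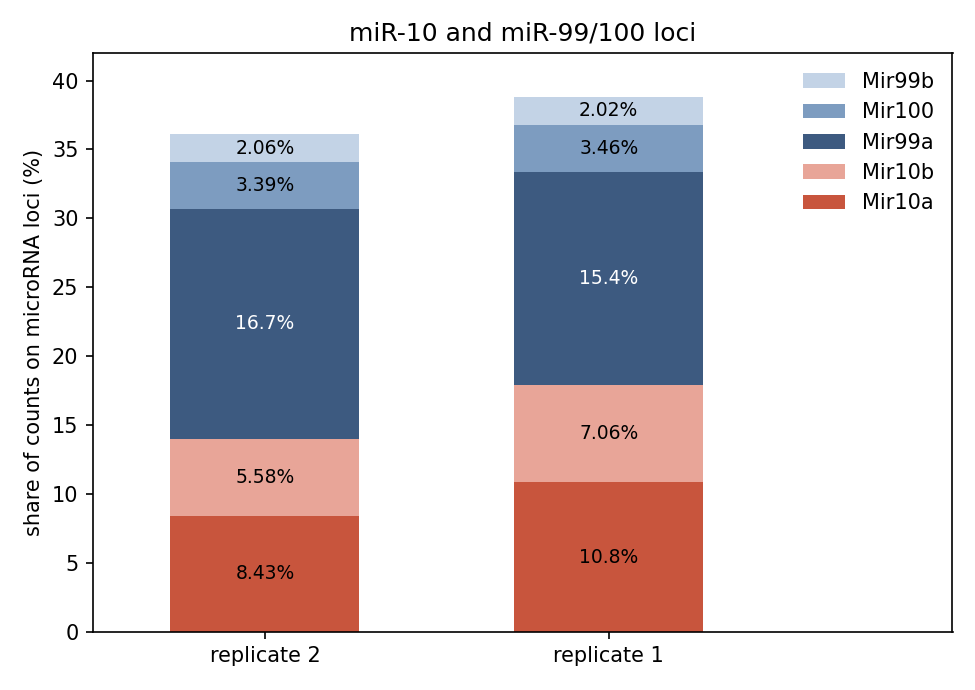
Share of microRNA counts (%) held by the miR-10 loci (red shades) and the miR-99 and miR-100 loci (blue shades) in replicate 2 and replicate 1, as stacked bars. The miR-10 loci held 14.01% in replicate 2 and 17.9% in replicate 1, while the blue part was 22.1% in replicate 2 and 20.9% in replicate 1.

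Both miR-10 loci and Mir615 were lower in replicate 2, while Mir196b and Mir196a-2 did not pass the test. After TMM scaling, Mir10a had a log2 ratio of replicate 2 over replicate 1 of -0.41 (exact 95% interval -0.41 to -0.40), Mir10b of -0.38 (-0.39 to -0.37) and Mir615 of -0.58 (-0.61 to -0.55). Mir196b had 0.09 (-0.18 to 0.36) and Mir196a-2 had 0.75 (-0.05 to 1.62), both with intervals that include 0. By an exact two-sided binomial test, adjusted over the 498 loci that reached 10 counts over both libraries, 3 of the 5 measured members were lower in replicate 2, 0 were higher and 2 did not pass. Mir196a-1, with 1 count in all, was not tested. Of all 498 loci, 15.1% were called lower, 17.5% higher and 32.5% in either direction. Where both libraries had 100 or more counts, as for Mir10a, Mir10b, Mir615 and Mir196b, 24.8% of 282 loci were called lower and 53.2% in either direction. The median log2 ratio was -0.38 over the 5 measured members and 0.01 over all loci tested.

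The depth of Mir10a, Mir10b and Mir615 makes small differences pass a test of counting error, so their size was set beside that of other abundant loci. Among the 95 loci with a mean of at least 1000 CPM, 3 had a lower log2 ratio than Mir615, 5, Mir615 included, a lower one than Mir10a and 7, Mir615 and Mir10a included, a lower one than Mir10b. The SD of the log2 ratio over the 282 loci was 0.22. By edgeR's exact test with a common dispersion (a coefficient of variation of 10.8%), 0 members were called and Mir615 alone had an unadjusted p under 0.05 (p = 0.00882, adjusted p = 0.399). That test called 1.41% of all loci, with 27 loci at an unadjusted p under 0.05. The dispersion was estimated over all loci from the same difference between the 2 libraries that was then tested, so few calls were bound to result, and the count of 0 does not show that the members did not differ. No further library checks these differences, and the day of collection cannot be told apart from the replicate.

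**Figure D4:**
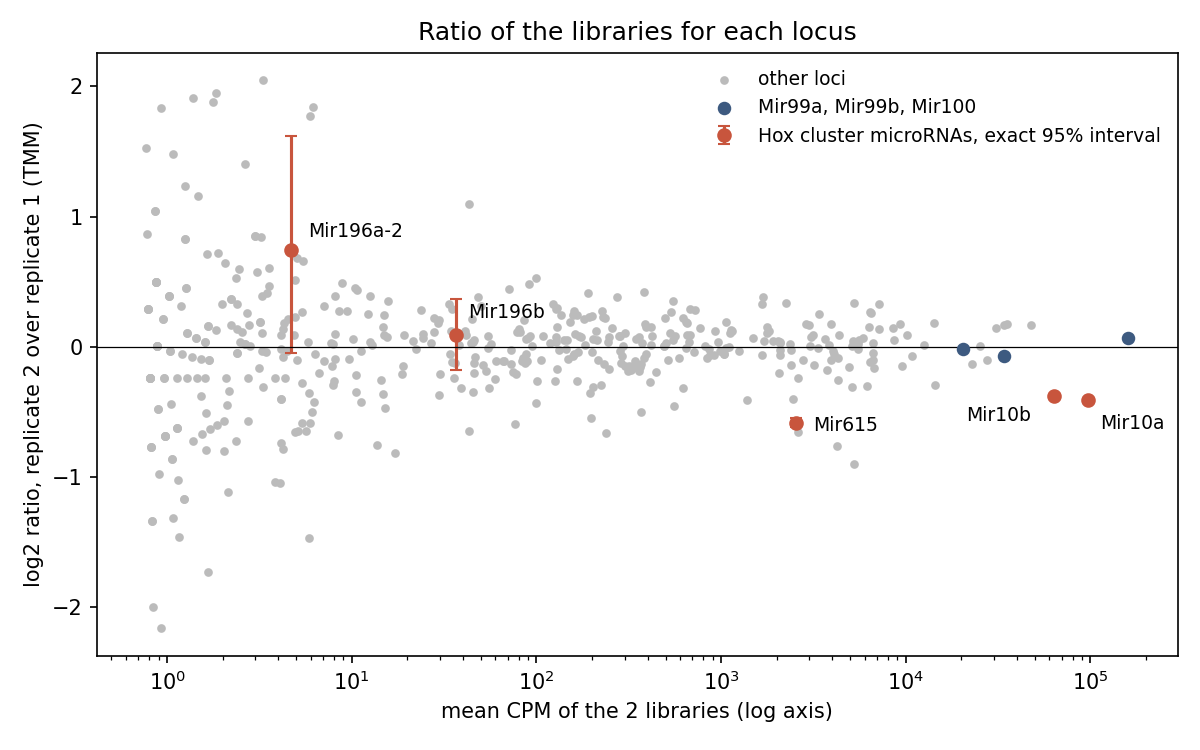
Log2 ratio of replicate 2 over replicate 1 after TMM scaling against mean CPM (log axis) for 498 loci, with the measured Hox cluster microRNAs in red (exact 95% intervals), Mir99a, Mir99b and Mir100 in blue and the other loci in grey. Mir10a at -0.41, Mir10b at -0.38 and Mir615 at -0.58 lie below most loci of like abundance, and Mir196b at 0.09 lies among them.

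The loci outside the Hox clusters most like the miR-10 loci in this ratio were Mir204 at -0.40, Mir181b-2 at -0.41, Mir20a at -0.31, Mir93 at -0.30 and Mir17 at -0.29. They were the nearest of 92 loci with at least 1000 CPM, by difference in log2 ratio from the miR-10 loci summed, over 2 libraries. Mir204 is a microRNA of choroid plexus and pigment epithelium, and Mir17, Mir20a and Mir93 belong to paralogous clusters that are active in proliferating cells. Mir181b-2 belongs to neither. Not all loci of these clusters were as low, with Mir18 at -0.09 and Mir106b at -0.11. Markers of choroid plexus and multiciliated cells differed in the same direction as the miR-10 loci. The list has 11 loci, Mir204 among them, each with at least 10 counts in both libraries. They summed to 12022 CPM in replicate 2, against 19145 CPM in replicate 1, with 9 of 11 called lower and 0 higher. For comparison, 15.1% of all 498 loci were called lower, and 24.8% of the 282 with 100 or more counts in both libraries. Several of the 11 loci share a cluster or a host intron, such as Mir449a, Mir449b and Mir449c, so they are not independent. The list was also written with results of these data known. The count of 9 is therefore a description and not a test. The part of these markers in the values of the Hox cluster members was not tested.

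The other marker lists moved less or the other way. In the neural list, 9 of 11 measured loci had 10 or more counts in both libraries. The list summed to 3.46% of counts in replicate 2 and 3.08% in replicate 1, with 5 loci called higher and 2 lower. It includes the copies of Mir9 and Mir124a, and any reads that match several copies are in no count. Its sum can therefore not be read as the level of neural microRNAs. The mesenchyme and cartilage list summed to 11770 CPM in replicate 2, against 11084 CPM in replicate 1, with 2 loci called higher and 2 lower. Red cell loci summed to 386 CPM in replicate 2, against 278 CPM in replicate 1, with 2 of 3 called higher. Among all 498 loci 17.5% were called higher. Skeletal muscle loci summed to 16.5 CPM in replicate 2, against 15.4 CPM in replicate 1, with Mir1a-1 and Mir133a-1 at 0 counts in both. The muscle, mesenchyme and red cell lists also name copies, those of Mir1a, Mir133a, Mir199a and Mir486. Any reads that match several copies are again in no count. These sums and the 0 counts can therefore not be read as the level or absence of those microRNAs. None of these lists separates hindbrain from other brain regions.

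The known target of miR-196 lies in the same cluster as Mir196a-1 and shows how far a member can pair with a Hox messenger. The best ungapped match to miR-196a-5p in the Hoxb8 3′ untranslated region (GRCm38, plus strand, GENCODE M21) is printed with the bases that pair by Watson-Crick rules in capitals.
Hoxb8 site, chr11:96284888-96284909: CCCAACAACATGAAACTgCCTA
miR-196a-5p pairs at 21 of 22 bases, and the remaining base, opposite position 5 of the microRNA, forms a G-U wobble. miR-196b-5p pairs at 20 of 22 bases, with positions 5 and 12 left, and position 12 is where it differs from miR-196a. Messenger RNA was not measured in these libraries, so the site is a description of sequence.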

How the data were processed

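Small RNA of 2 mouse hindbrain libraries was analysed from the deposited tables of raw read counts per microRNA locus, with columns for both strands, the gene strand and the opposite strand. The build is mm10 with annotation M4, per the file lists deposited with the tables, while the sources used here do not name the aligner or counter. Gene-strand counts were used (97.8% of counts on loci in replicate 2, 98.0% in replicate 1). Unassigned reads entered no test, and no total except that of all reads, used for percentages of reads and as an alternative denominator. These rows held 15.9% unmapped, 34.3% multimapping and 3.31% outside loci in replicate 2, and 13.8%, 33.9% and 2.99% in replicate 1. Replicate numbers come from the labels.

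Symbols and positions came from GENCODE M21 (GRCm38, the same build), matched on the identifier without version for 1894 of 1973 loci. Sequences came from RefSeq (GRCm38.p6). CPM divides by gene-strand counts on loci. One read covers a mature microRNA, so levels need no length scaling. Ratios used TMM factors of 1.01 in replicate 2 and 0.985 in replicate 1, adding 0.5 to each count. With 1 library a replicate no residual degrees of freedom are left for edgeR's quasi-likelihood test. Each of 498 loci was therefore tested by an exact binomial test, adjusted by Benjamini-Hochberg with a threshold of 0.05. The procedure was also run on simulated counts with counting error and set fold changes. Those counts held no spread between libraries, so the run does not show how the test behaves under such spread. Intervals are 95% and cover counting error only, since no molecular identifiers were counted, and the limit for 0 counts is 3 counts.

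The members and lists were chosen with earlier results of these data known. Named are the 6 members, Mir99a, Mir99b and Mir100, loci sharing a seed, rank neighbours, and the 5 loci of at least 1000 CPM nearest in ratio to the miR-10 loci. Alternatives covered strand, denominator, filter, scaling, added count, summed copies, test and leaving out each replicate. Scaling and dispersion came from edgeR 4.0.16 and DESeq2 1.42.0 in R 4.3.3, and the rest from scipy 1.17.1 and pandas 2.3.3 in Python 3.11.15.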

Additional observations from a re-analysis of the deposited data

How the results depend on the processing

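The log2 ratios of the 5 measured members kept their direction and call under 4 other scalings, with counts of both strands and with 1 added to each count, and the levels stayed within 1 SD with counts of both strands. Per 1000000 of all reads, in place of counts on loci, the 6 members held 7.80%, and the levels were 46362 for Mir10a, 30384 for Mir10b, 1228 for Mir615, 17.6 for Mir196b and 2.24 for Mir196a-2. With Mir99a left out of the total, the members held 19.3%, and Mir10a had 114731, Mir10b 75214 and Mir196b 43.7 CPM. Both changes follow from the size of the denominator. Summed, Mir196a-1 and Mir196a-2 had 4.80 CPM. With edgeR's common dispersion 0 members and 7 loci were called, against 3 and 162. That test allows for spread beyond counting error, which the binomial test does not. It takes this spread from the same difference between the libraries, so neither count shows which calls would stand with further libraries. The log2 ratios of Mir10a, over 4 other scalings, lay between -0.36 and -0.42, those of Mir10b between -0.34 and -0.40 and those of Mir615 between -0.54 and -0.60. Library totals called 114 loci higher and 59 lower in replicate 2, against 87 and 75, which is a shift of all ratios by 0.04.

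Leaving out 1 replicate gave 14.2% to 18.2% for the members and 60.2% to 60.6% for the Mir10a share, and no ratio can be formed. With 2 libraries both values lie at one distance from their mean by construction, so this range is no check of stability. Depth limits Mir196a-1 and Mir196a-2, with at most 40 counts. No paired analysis was possible because there is 1 group.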
